A study of Danio rerio with 3 samples.

Results

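The DNA damage and repair genes were a list of 37 zebrafish genes chosen by name. They come from the routes by which cells sense and mend broken or altered DNA. The array held 27295 genes in all by the count used here. Only 13105 of these had a gene name. Each transcript without a matched name also counted as a gene, so 1 gene may be counted more than once. Shares and medians of all genes cover both kinds. Of the 37, 34 had a probe that could be named, and 33 had a probe free of outlier spots on every array. No probe was named for *atm*, *atr* or *blm*, and the gene listed as *ung* was read as *unga*. The values came from livers of AB strain larvae at 15 dpf, after 10 days of feeding that began at 5 dpf. Control larvae received AP100 at 30 mg per 100 fish a day. The larvae on the high-cholesterol diet (HCD) received 180 mg of AP100 with 4% cholesterol, so the diets differed in amount as well as in cholesterol. Larvae of the third group received HCD with berberine (BBR, a plant alkaloid) at 5 μM, and this group is called BBR here (HCD+BBR in the plots). Each group had 1 array, and the number of livers behind an array is not given in the sources used here.

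Lesions in DNA are mended by routes that differ in the lesion they read. Base excision repair removes single altered bases, nucleotide excision repair cuts out bulky adducts, and mismatch repair corrects errors of copying. Broken ends are joined directly or copied from the sister strand by homologous recombination, and the Fanconi anemia pathway unhooks strands that are crosslinked. Many genes of recombination and of the Fanconi pathway are transcribed most in dividing cells, whereas excision repair also serves cells that do not divide.

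Slide 1 held the arrays of control and BBR, while slide 2 held that of HCD. For HCD against control, diet and slide cannot be told apart. For BBR against HCD, which shared a diet, berberine and slide cannot be told apart. Only BBR against control, which differ in both diet and berberine, was compared within a slide. Of the 43803 non-control spots of each array, 88.5% to 92.3% were well above background. Outlier spots numbered 1510 on the control array, 1665 on HCD and 20 on BBR. The SD of log2 signal between spots of a probe was 0.19, 0.17 and 0.09. In these marks the arrays of slide 1 were unlike each other. Between probes of the same gene, the log2 difference of HCD from control had an SD of 0.32 (6918 genes), that of BBR from HCD 0.33 and that of BBR from control 0.29. This spread is technical and does not cover animals, RNA extraction or labelling. As each group had 1 array, there is no replicate error, no test and no P value, and 3 arrays set the limit of what the values can show. Signals are given as a percentage of the 75th percentile of their array, and differences as log2 differences of these signals.

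The repair genes were higher on the HCD array than on the control array, with a median log2 difference of 0.30 over the 33 genes, where the median of all 24563 genes measured was −0.16. At least 2-fold higher in HCD were 6 of the 33 (*pif1*, *primpol*, *rad54l*, *ube2t*, *h2ax* and *parpbp*), against 3.69% of all genes, and 1 was at least 2-fold lower (*rev1*), against 4.08% of all genes. Between the BBR and HCD arrays the median of the 33 was −0.21, where that of all genes was 0.10. At least 2-fold lower in BBR than in HCD were 5 of the 33, against 1.32% of all genes, and 0 were at least 2-fold higher, against 4.53%. These 5 were *primpol*, *rad54l*, *pif1*, *h2ax* and *parpbp*. Both comparisons use the HCD array, so a low or high value on that array enters each of them.

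Within slide 1, BBR against control, the repair genes had a median of 0.07. By their brightest probes, none of the 33 was at least 2-fold different in either direction, where 3.81% of all genes were higher and 1.28% lower. The lowest value was −0.70 for *fancd2* and the highest at least 0.61 for *pif1*, whose control signal was not well above background. At a threshold of 1.5-fold, 11 of the 33 genes were higher in HCD than in control (9.51% of all genes) and 1 lower (17.8%), 1 was higher in BBR than in HCD (16.1%) and 9 lower (5.03%), and 2 were higher in BBR than in control (10.2%) and 1 lower (6.84%). The HCD array had the highest signal of the 3 in 19 of the 33 genes (57.6%), against 24.8% of all genes with a usable probe. Of the 33 genes, 6 are named by the study from these same arrays (*h2ax*, *parpbp*, *pif1*, *rev1*, *primpol* and *ube2t*), so the counts above are not independent of that choice. Without them, 1 of 27 genes (*rad54l*) was at least 2-fold higher in HCD than in control and lower in BBR than in HCD, and the medians of the 27 were 0.26 and −0.19. That 1 gene is 3.70% of the 27, against 3.69% of all genes higher in HCD and 1.32% lower in BBR, so for HCD minus control the count at 2-fold without the named genes was at the level of the whole array.

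**Figure D1:**
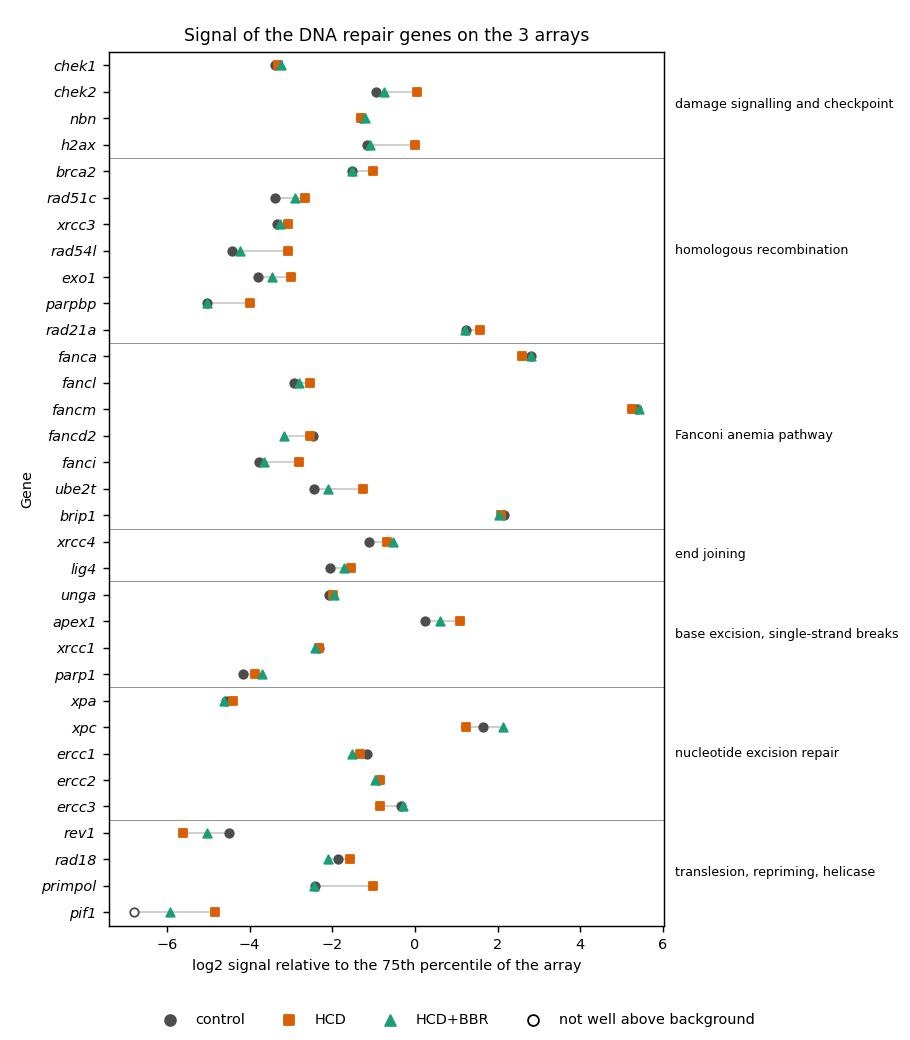
Log2 signal of the 33 repair genes relative to the 75th percentile of each array (0 on the horizontal axis), with 1 point per array and genes grouped by repair route. The HCD array stands to the right of the other arrays for *primpol*, *h2ax*, *chek2*, *ube2t*, *fanci* and *rad54l* and to their left for *rev1*, and the open circle of *pif1* marks a control signal not well above background.

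Among the genes of damage signalling, *h2ax* encodes the histone variant that is phosphorylated around a double-strand break. Its signal was 44.9% of the 75th percentile in control, 101% in HCD and 47.3% in BBR. The HCD value stood apart, 2.24-fold above control (log2 difference 1.17) and 2.13-fold above BBR (−1.09 for BBR minus HCD), while BBR and control differed by 0.07. The checkpoint kinase *chek2*, which acts downstream of double-strand breaks, followed the same order at 52.2%, 104% and 59.6%. Its log2 differences were 1.00 for HCD minus control, just short of the 2-fold line, and −0.81 for BBR minus HCD. The genes nearest to the threshold were *chek2* outside and *parpbp* (1.04) inside for higher in HCD than in control, and *ube2t* (−0.85) outside and *parpbp* (−1.03) inside for lower in BBR than in HCD. The kinase *chek1*, which answers stalled replication, lay at 9.60%, 10.1% and 10.6%. The break sensor *nbn* lay at 40.4%, 40.2% and 43.5%. By their brightest probes, neither *chek1* nor *nbn* differed between any arrays by more than the spread between probes. The other probe of *nbn* did, with 0.68 for HCD minus control and 0.34 for BBR minus control.

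By their brightest probes, all 7 measured genes of homologous recombination were higher in HCD than in control, as were 37.8% of all genes, and lower in BBR than in HCD, as were 40.6% of all genes. The medians of the 7 were 0.73 and −0.47. The helicase-like motor *rad54l*, which acts during strand exchange, had a signal of 4.67% in control, 11.8% in HCD and 5.28% in BBR. It differed by 1.34 between HCD and control and by −1.17 between BBR and HCD. For *parpbp*, whose human counterpart binds PARP1 and restrains recombination, the signal was 3.05%, 6.28% and 3.07%. Its differences were 1.04 and −1.03, and control and BBR differed by 0.01. The nuclease *exo1*, which resects broken ends, and *rad51c*, which acts in strand exchange, were higher in HCD than in control by 0.81 and 0.73, but lower in BBR than in HCD by only 0.47 and 0.25 (log2 differences −0.47 and −0.25). For *brca2*, a mediator of strand exchange, the differences were 0.52 and −0.52. The differences of *xrcc3* were 0.26 and −0.20, and those of the cohesin subunit *rad21a* 0.32 and −0.37. The other probes of *rad21a* gave −0.26 and 0.26 for HCD minus control and 0.14 and 0.06 for BBR minus HCD, so its place among the 7 rests on its brightest probe.

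The Fanconi anemia genes fell into unlike groups. The ubiquitin-conjugating enzyme *ube2t*, which modifies the *fancd2* and *fanci* proteins, had a signal of 18.4% in control, 41.7% in HCD and 23.1% in BBR, and the differences were 1.18 for HCD minus control and −0.85 for BBR minus HCD. For *fanci*, the differences were 0.95 and −0.83. In contrast, *fancd2* had 18.2% in control, 17.3% in HCD and 11.2% in BBR, so that BBR was the low array. It was the member with the lowest value for BBR minus control (−0.70), and its other probe gave −0.64. For the ubiquitin ligase *fancl*, the differences were 0.41 and −0.28. The core complex scaffold *fanca*, the translocase *fancm* and the helicase *brip1* differed by −0.20, −0.12 and −0.06 between HCD and control, all within the spread between probes. In control, the *fancm* probe read 4164%, above the hepatocyte marker *fabp10a* at 2551%. The brightest *brip1* probe read 445% there, where its other measured probes read 19.9% and 8.33%. Whether these bright probes report their genes alone was not tested, so the genes cannot be called unchanged.

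Of the genes of lesion bypass, repriming and fork helicases, *primpol* and *pif1* were higher in HCD than on both other arrays by over 2-fold. The primase-polymerase *primpol*, which restarts synthesis beyond a lesion, had a signal of 18.7% in control, 49.6% in HCD and 18.4% in BBR. HCD was 2.65-fold above control and 2.69-fold above BBR, and BBR and control differed by −0.02. The helicase *pif1*, which unwinds G-quadruplexes at forks, was not well above background on the control array (0.904%) and had 3.51% in HCD and 1.63% in BBR. HCD was at least 3.29-fold above control and 2.15-fold above BBR. The lowest signal marked as well above background was 1.07% in control, 0.965% in HCD and 0.824% in BBR. With normexp background correction the differences of *pif1* fell short of 2-fold, at 0.57 for HCD minus control and −0.49 for BBR minus HCD.

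The translesion polymerase scaffold *rev1* was the only one of the 33 genes at least 2-fold lower in HCD than in control. Its signal was 4.40% in control, 2.05% in HCD and 3.05% in BBR. HCD was 2.15-fold below control (log2 difference −1.10), and BBR lay between them, 0.58 above HCD and 0.53 below control (−0.53). The ubiquitin ligase *rad18*, which marks stalled forks for bypass, had 27.3%, 33.8% and 23.2%, with differences of 0.30 and −0.54.

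End joining (2 measured genes), base excision (4) and nucleotide excision repair (5) held no gene whose brightest probe was at least 2-fold different in any comparison. Over all genes, 1.28% to 4.53% were at least 2-fold different in each direction of a comparison. In routes of so few genes, the absence of a call is close to that share and does not set them apart. The end-joining ligase *lig4* had a signal of 24.0% in control, 34.1% in HCD and 30.5% in BBR, and its cofactor *xrcc4* 45.9%, 63.0% and 69.2%. Both were higher in HCD than in control, by 0.51 and 0.46, and neither was lower in BBR than in HCD by more than 0.16 (−0.16 for *lig4*, 0.13 for *xrcc4*). Within slide 1, *xrcc4* was 1.51-fold higher in BBR than in control, and its other probe gave a log2 difference of 1.01, past 2-fold, and 0.95 for HCD minus control. By its brightest probe, the abasic site endonuclease *apex1* had 119%, 212% and 152%, and its difference of 0.84 between HCD and control was the largest of base excision repair. Its 3 other probes gave 0.34 to 0.77 for HCD minus control and −0.38 to 0.08 for BBR minus HCD. Whether *apex1* was lower in BBR than in HCD therefore depends on the probe. The uracil glycosylase *unga* (23.8%, 25.3% and 25.6%) and the scaffold *xrcc1* (20.2%, 19.99% and 18.6%) differed by no more than the spread between probes in any comparison. For the strand break sensor *parp1*, the signal was 5.62%, 6.85% and 7.75%, and BBR was above control by 0.46.

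By the brightest probes, nucleotide excision repair and the Fanconi genes were the only routes with a negative median for HCD minus control. The medians were −0.18 over 5 genes and −0.06 over 7, where that of all genes was −0.16. The Fanconi median was the value of *brip1*, whose other measured probes gave 0.50 and 0.82. The sign of that median therefore rests on the brightest probe of *brip1*. The damage sensor *xpc* had a signal of 313% in control, 235% in HCD and 436% in BBR, so BBR was the high array, 1.85-fold above HCD. The helicase *ercc3* of the repair factor TFIIH had 79.3%, 55.5% and 82.2%, and BBR was 0.57 above HCD. By their brightest probes, the differences of *xpa*, *ercc1* and *ercc2* were between −0.18 and 0.16 for HCD minus control and between −0.21 and −0.13 for BBR minus HCD. The other probes of *ercc2* gave −0.58 and 0.19 for HCD minus control and 0.15 and −0.50 for BBR minus HCD. For the mismatch recognition gene *msh6*, the spot on the HCD array was marked as an outlier. The signal was 10.49% in control and 11.3% in BBR, a difference of 0.10, and the outlier spot in HCD read 10.96%.

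**Figure D2:**
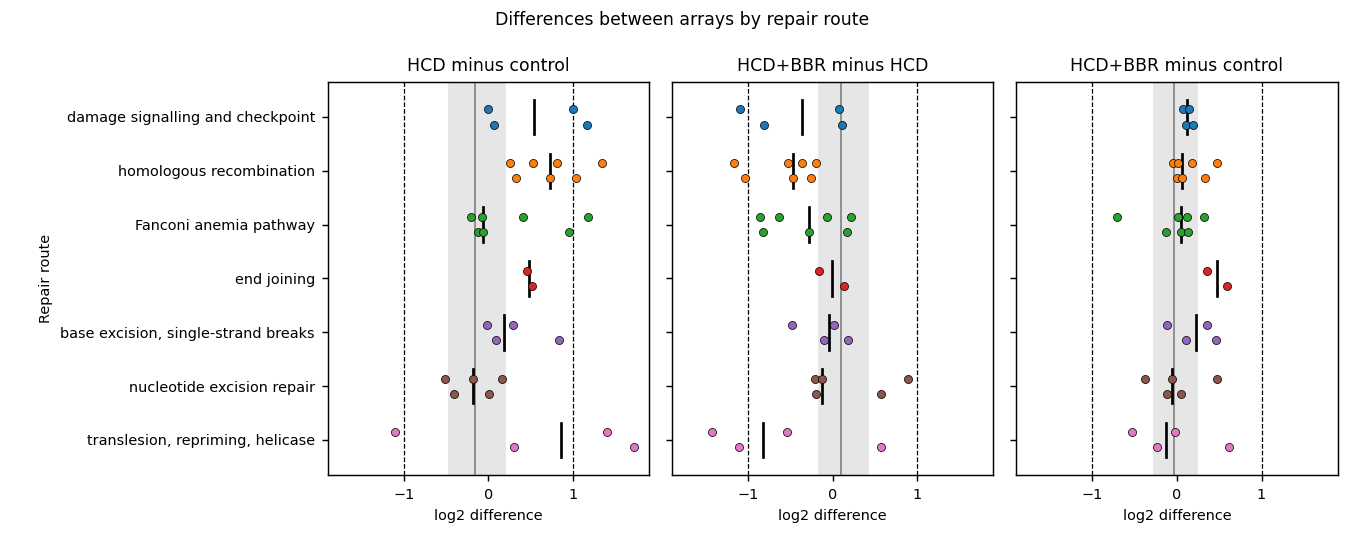
Log2 differences of the measured repair genes by route for HCD minus control, BBR minus HCD and BBR minus control. Each point is a gene, the black bar is the median of the route, the dashed lines mark 2-fold, and the grey line and band mark the median and the interquartile range of all genes. All 7 recombination genes lie above 0 in the left panel and below 0 in the middle panel, and no gene passes 2-fold in the right panel.

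Of the 33 genes, 18 had at least 1 other measured probe. In 13 of these, every other probe had the sign of the brightest probe for HCD minus control, and in 11 for BBR minus HCD. For *brca2*, the probe counted as opposite for HCD minus control (−0.08) had its control signal raised to the floor. That value is a lower bound, so its sign is not known. The second probe of *primpol* gave 1.24 and −1.30, also past 2-fold both times. For *rev1*, the second probe gave −1.08 for HCD minus control, like the first, but 1.45 for BBR minus HCD, where the first gave 0.58. The size of the BBR difference of *rev1*, and its sign against control (0.37 by the second probe, −0.53 by the first), therefore depend on the probe. The other probes of *fanci* gave 0.74 and 0.89, where the latter is a lower bound. The brightest probe of *brip1* gave −0.06 for HCD minus control, whereas its other measured probes gave 0.50 and 0.82. For *nbn*, the other probe gave 0.68 where the brightest gave −0.01, and for *xpc* it gave 1.22 for BBR minus HCD. Of the 7 genes past 2-fold, *h2ax*, *rad54l*, *ube2t* and *pif1* had a single probe, and the second probe of *parpbp* was well above background on no array, so these 5 have no check by a second probe. The study also measured some of the genes past the threshold by quantitative PCR on dissected livers. It reports *h2ax* (there *h2afx*), *parpbp*, *pif1*, *primpol* and *ube2t* as significantly decreased by BBR against HCD, and *rev1* as increased. For *rad54l* it gives no PCR result. The PCR values were not among the data used here.

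**Figure D3:**
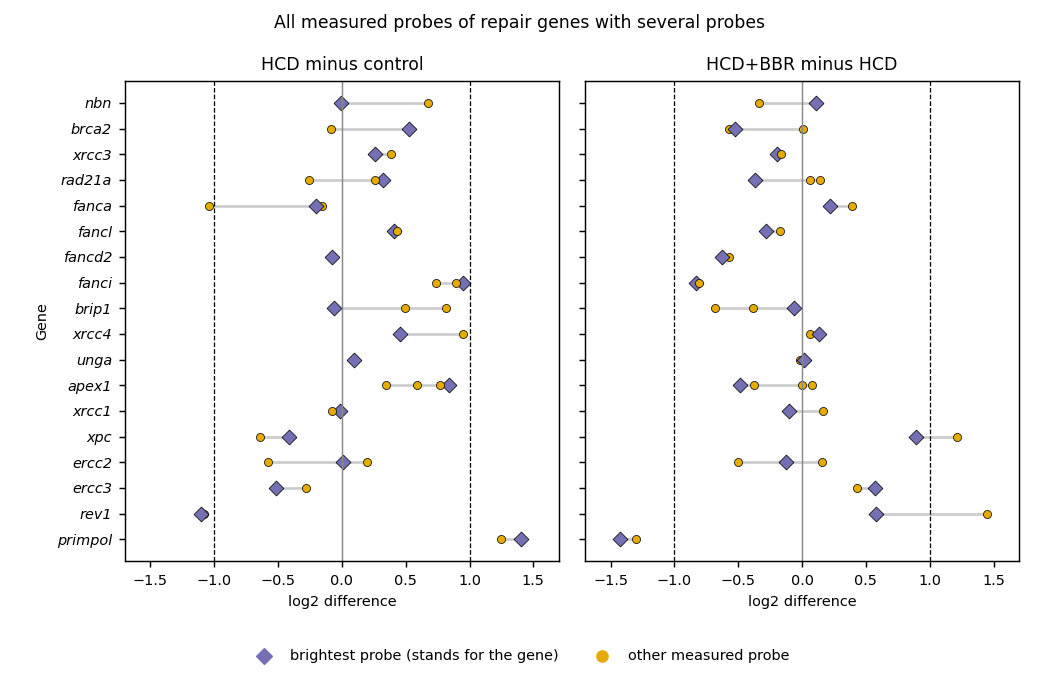
Log2 differences of every measured probe of the 18 repair genes with several, for HCD minus control and BBR minus HCD. Diamonds are the brightest probe, which stands for the gene, circles are its other probes, and dashed lines mark 2-fold. The probes of *primpol* lie close together beyond 2-fold in both panels, and those of *brip1*, *nbn* and *fanca* spread widely in the left panel.

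A further list of 98 repair genes held none of the 37, and 62 of them were measured. Their medians were 0.14 for HCD minus control, −0.25 for BBR minus HCD and 0.01 for BBR minus control. At least 2-fold higher in HCD than in control were 2 (*fancc* and *mus81*), which is 3.23% against 3.69% of all genes, and 1 was lower (*ogg1*), 1.61% against 4.08%. At least 2-fold lower in BBR than in HCD was 1 (*fancc*), 1.61% against 1.32%, and 0 were higher, against 4.53%. These shares were no larger than, or close to, those of all genes. The Fanconi core gene *fancc*, not well above background in control (1.05%), had 3.46% in HCD and 1.25% in BBR, at least 3.24-fold above control and 2.77-fold above BBR. The crossover nuclease *mus81* had 25.4%, 50.9% and 31.1%. The 8-oxoguanine glycosylase *ogg1*, which removes the main oxidised base, had 32.5%, 16.1% and 24.9%, with HCD the low array (−1.01). By their brightest probes, all 7 measured recombination genes of this list were higher in HCD than in control (median 0.46), as were 37.8% of all genes. All 7 were also lower in BBR than in HCD (−0.36), as were 40.6% of all genes. Both comparisons use the HCD array.

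Genes of cell division differed more than the repair genes. Of 10 measured mitosis genes, all 10 were at least 2-fold higher in HCD than in control (median 1.38), against 3.69% of all genes, and 4 were at least 2-fold lower in BBR than in HCD (median −0.91), against 1.32%. Of 19 DNA replication genes, 13 were at least 2-fold higher in HCD (median 1.08) and 1 at least 2-fold lower in BBR (median −0.77). The summed signal of the mitosis genes was 349% in control, 959% in HCD and 502% in BBR, and that of the replication genes 1296%, 2452% and 1474%. In both sums HCD was highest and control lowest, an order found in 13 of the 33 repair genes. In 6 of the 33, *primpol* among them, HCD was highest and BBR lowest. In these 6, BBR lay below control by 0.24 or less (−0.24 for *rad18*), within the SD between probes of 0.29. The order of control and BBR was therefore not resolved there, nor for *h2ax* (0.07) and *parpbp* (0.01) among the 13. How many of all genes had either order was not counted. HCD was highest, whichever array was lowest, in 24.8% of all genes with a usable probe. Within slide 1, the medians of mitosis and replication for BBR minus control were 0.45 and 0.34, against 0.07 for the repair genes. In whole tissue, more dividing cells and more RNA of these genes per cell cannot be told apart, and the part of cell division in the repair gene differences was not tested.

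The arrays carried hepatocyte RNA, with all 7 measured hepatocyte markers, *fabp10a* among them, well above background on every array and a median of 0.01 for HCD minus control. All measured markers of exocrine pancreas (6), intestine (5), skeletal muscle (5), erythrocytes (5), germ cells (5) and macrophages and neutrophils (6) were also well above background on every array. That mark was met by 88.5% to 92.3% of non-control spots, so it says little by itself. In control, the summed signal of the hepatocyte markers was 8193%, that of pancreas 21645%, of intestine 6584% and of muscle 12303%. The germ cell markers summed to only 34.6%. By the levels of pancreas, intestine and muscle markers, the label liver was not matched by markers of liver cells alone. The medians of the lists besides hepatocytes, in the order named, were −0.27, 0.03, −0.05, −0.03, 0.20 and 0.61 for HCD minus control. The summed signal of the macrophage and neutrophil markers was 1056% in control, 1705% in HCD and 2010% in BBR. Of these 6 markers, 4 were highest in BBR, while *mpx* (25.3%, 72.9% and 45.6%) and *lyz* (435%, 586% and 559%) were highest in HCD. The part of cell makeup in the repair gene values was not tested.

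**Figure D4:**
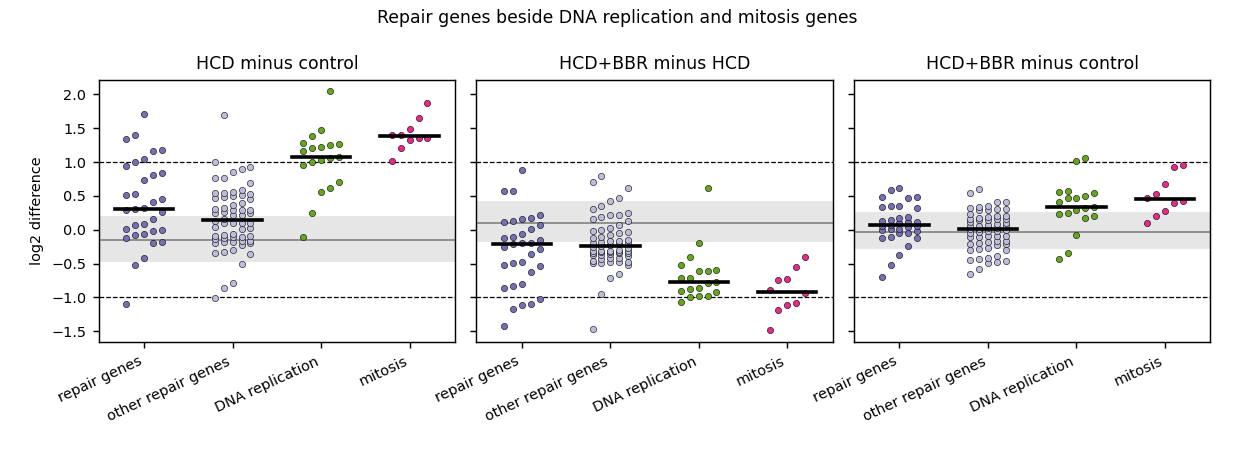
Log2 differences of the 33 repair genes, 62 other repair genes, 19 DNA replication genes and 10 mitosis genes in the 3 comparisons. Each point is a gene, black bars are medians, the grey line and band mark the median and the interquartile range of all genes, and dashed lines mark 2-fold. The medians for HCD minus control are 0.30, 0.14, 1.08 and 1.38.

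Across the 10 other ways of processing the arrays at the 2-fold threshold, *primpol*, *h2ax* and *ube2t* stayed at least 2-fold higher in HCD than in control, and *primpol* and *h2ax* at least 2-fold lower in BBR than in HCD. With normexp background correction, *rad54l*, *parpbp* and *pif1* fell short of 2-fold in each comparison, at 0.58, 0.66 and 0.57 for HCD minus control and −0.77, −0.77 and −0.49 for BBR minus HCD. The value of *rev1* for HCD minus control was −0.43 under normexp and −0.76 under cyclic loess. The kinase *chek2* was past 2-fold in 3 of the 10, with values from 0.99 to 1.09. *pif1* had no value over genes well above background on all arrays.

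**Figure D5:**
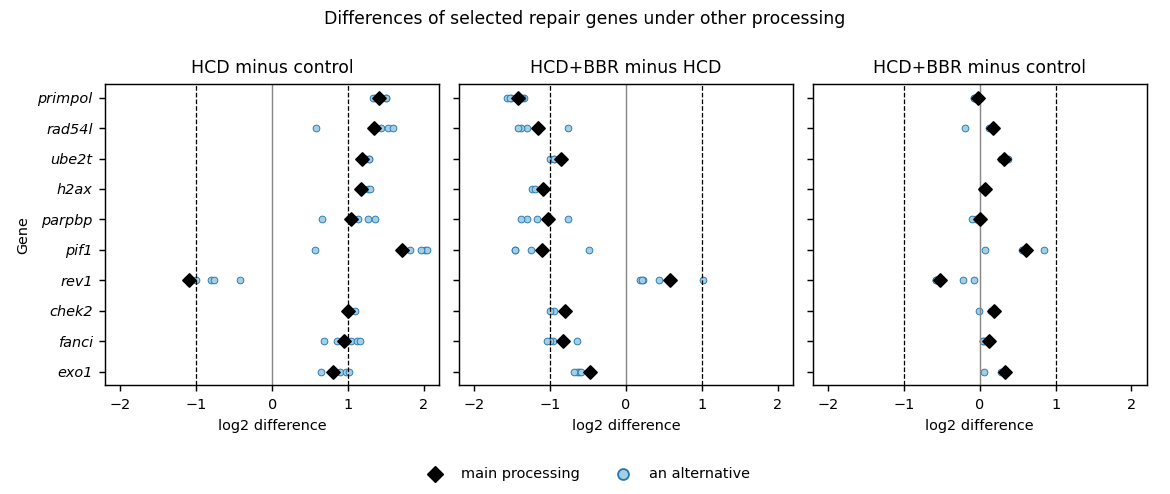
Log2 differences of 10 repair genes under the main processing (diamonds) and the alternatives (circles), with dashed lines at 2-fold. The values of *primpol*, *h2ax* and *ube2t* barely move, whereas those of *rad54l*, *parpbp*, *pif1* and *rev1* include values within 2-fold in the left panel.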

How the data were processed

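Liver RNA of 3 groups was measured on 1 single-colour Agilent zebrafish array each. The authors deposited the scanner intensity of each spot as written by Feature Extraction 11.5.1.1 per the file headers (the submitters' processing notes name 10.7), with the background subtracted, the median intensity, the local background and marks for outliers, saturation and signal well above background. They also deposited log2 values from GeneSpring, which equal the log2 processed intensity minus a constant for each array.

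Control spots were removed, spots of a probe were averaged on the log2 scale, and the 75th percentile over 43603 probes was subtracted from each array. Probes with only outlier spots on any array were left out (2657). Gene names came from a table of assembly GRCz12tu, joined on the RefSeq accession of the probe without its version. It was used for names only, since the array was designed on Zv9, and no coordinates are given. Of 28397 accessions, 13553 matched. Each accession that did not match counted as a gene of its own in the values over all genes. The probe with the highest mean log2 signal stood for a gene. A gene counted as measured in a comparison unless its probe was dim (not well above background) on both arrays. A dim signal on one array was raised to a floor, the lowest signal of that array with the mark of being well above background, where it lay under it, and the fold is then given as "at least". The slide could not be fitted as a block. The 2-fold threshold is that of the methods. With 1 array per group no test exists, and no P value is given.

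The repair genes, their routes and the other lists were chosen with earlier results of these data known. Signals are printed for the genes at least 2-fold different in any comparison, for the 6 that the study names, and for genes of routes with 4 or fewer measured members. Other genes with printed signals were chosen after their values were seen. The alternatives were scaling by the median or by the 75th percentile of detected probes, quantile normalization, cyclic loess with 3 iterations and normexp with an offset of 50 on the median intensity (limma 3.58.1, R 4.3.3), other filters, outliers kept, the mean over probes, the deposited log2 values and a 1.5-fold threshold. Python 3.11.15, numpy 2.4.6, pandas 2.3.3 and matplotlib 3.10.9 did the rest. Before use, the scripts were tested on simulated data. The changes planted there were larger than any difference of the repair genes here, so that test does not bear on calls near 2-fold.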

Additional observations from a re-analysis of the deposited data

How the results depend on the processing

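No paired analysis was possible because each group has 1 array, and for the same reason no array could be left out. No gene at least 2-fold different changed sign in that comparison under any alternative run, and 962 values of single genes under single alternatives moved by less than the SD between probes of a gene, while 25 moved by more. Some alternatives, such as the deposited log2 values and the other filters, leave the value of a detected gene almost as it was. The count of 962 was therefore in part fixed in advance and does not measure how robust the values are. The median of the repair genes for HCD minus control was 0.30, and it was 0.40 with median scaling, 0.42 after quantile normalization and 0.46 after cyclic loess. For BBR minus HCD it was −0.21, and −0.35, −0.39 and −0.39 under these settings. For BBR minus control it was 0.07, and 0.010 with normexp. Cyclic loess moved the median of all genes from −0.16 to −0.05 for HCD minus control, and from 0.10 to −0.02 for BBR minus HCD. It called 9 repair genes higher and 0 lower in HCD than in control, where 6 and 1 were called, and of all genes 4.95% higher and 2.003% lower. For BBR minus HCD it gave 2.32% and 2.25% of all genes, in place of 4.53% and 1.32%. The 1 gene lower in HCD than in control, *rev1*, was also not called after quantile normalization or normexp (0 genes each). With normexp, 3 genes were higher in HCD than in control and 2 lower in BBR than in HCD, in place of 6 and 5. With the mean over probes, 2 genes (*xpc* and *rev1*) were higher in BBR than in HCD, in place of 0. At 1.5-fold, 11 genes were higher in HCD than in control, where 9.51% of all genes were, and 9 were lower in BBR than in HCD, where 5.03% were, with 1 higher. For BBR minus control, 2 were then higher and 1 lower. The genes that lost a call with normexp, *pif1*, *rad54l*, *parpbp* and *rev1*, had signals of at most 11.8% of the 75th percentile on every array.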

Other observations

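A smaller set of repair genes had HCD as the lowest of the 3 arrays. Among the 33 genes these were *xpc*, *ercc3*, *rev1*, *fanca*, *fancm* and *nbn*, and they were picked out after their values were seen. They are 18.2% of the 33, where HCD was lowest in 47.4% of all genes. For *nbn* the brightest probe gave −0.01 for HCD minus control, and its other probe had HCD as the highest array (29.3%, 46.8% and 37.1%). In the further list of repair genes, the damage recognition gene *ddb2* had a signal of 332% in control, 263% in HCD and 351% in BBR, and *ercc8*, which acts where transcription is blocked, had 72.0%, 57.5% and 79.2%. The translesion polymerase *poli* had 9.43%, 5.18% and 8.42%, a log2 difference of −0.86 for HCD minus control and 0.70 for BBR minus HCD. The Fanconi-associated gene *faap24* had 388%, 273% and 472.5%, with differences of −0.51 and 0.79. The genes of the further list named here were picked after their values were seen, and how many of that list had HCD lowest was not counted. By its brightest probe, none of the genes in this paragraph was at least 2-fold different except *rev1*. From the further list, *ogg1*, described above, also had HCD as the lowest array and was past 2-fold (−1.01). The median of all genes for HCD minus control was also below 0, at −0.16.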
